A study of Mus musculus with 7 samples.

Results

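The annexins are a family of calcium-dependent phospholipid-binding proteins, and 8 of their genes (Anxa1, Anxa2, Anxa3, Anxa4, Anxa5, Anxa6, Anxa7 and Anxa11) were followed here in mouse embryonic stem cells (ESCs) that had lost a distal Sox2 super-enhancer (SE). The 8 genes were chosen by name, out of 31498 genes with at least 200 exonic bases of their own in the annotation GENCODE M1. They were chosen with values of these libraries known, because Anxa5 had the highest ratio to wild type of the genes within 2 Mb of the SE, among those with at least 100 wild type alignments, in the clone that lacks it on both alleles. The ratios to wild type are therefore given as a description. The annotation holds 4 more annexin genes, Anxa8, Anxa9, Anxa10 and Anxa13, whose levels are given at the end.

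All cells except J1 were F123, an ESC line from a cross of Mus musculus castaneus (CAST) with the 129 strain, so that each autosome is present as a CAST and a 129 copy. Strand-specific RNA-seq was done on 4 F123 lines: wild type with both SE copies, the monoallelic clone CAST+/129- with the SE deleted by CRISPR from the 129 copy, the monoallelic clone CAST-/129+ with the SE deleted from the CAST copy, and the biallelic clone CAST-/129- with no SE. ChIP-seq was done for H3K4me3, a histone mark of active promoters, in unedited F123, and for H3K27ac, a mark of active promoters and enhancers, in unedited F123 and in J1, an ESC line of 129 background. Each genotype was 1 clone and each condition was 1 library, so no difference has a replicate check, a property of a single clone cannot be told apart from its genotype, and intervals cover counting error only. The methods of the study describe transfected cells that recovered on feeders of mouse embryonic fibroblasts under puromycin and cells that were passaged on feeder-free gelatin before harvest.

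An annexin protein carries a conserved core that binds acidic phospholipids on the inner face of membranes when calcium rises, joined to an N-terminal tail that differs from member to member and binds partners such as S100 proteins. Through this binding annexins organise the membrane and cortical actin, and they take part in vesicle traffic, exocytosis and the repair of torn plasma membrane. Anxa2 and Anxa1 are abundant in many differentiated epithelial and mesenchymal cells, and Anxa5 is known to biologists as the reagent that stains phosphatidylserine on dying cells.

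The RNA-seq libraries held between 7557984 distinct alignments in CAST-/129- and 33684661 in wild type, of which 5831179 to 24848413 lay on genes. Levels are FPKM, distinct alignments scaled by the length of the exonic bases and by the alignments on genes in the library, and a ratio has an exact 95% interval. The wild type library was the deepest and had 2.58 reads behind a distinct alignment, against 1.84 to 2.03 in the clones. Sox2 was at 175 FPKM in wild type, then 82.0 (CAST+/129-), 73.1 (CAST-/129+) and 7.40 (CAST-/129-), in the order of the labelled SE copies. All 8 ESC markers listed, among them Pou5f1 and Nanog, were at or above 1 FPKM in each of the 4 libraries. Nanog was lower in CAST-/129-, at 38.9 FPKM beside 130 in wild type.

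In wild type ESCs, by level over all exonic bases, the annexins fell into 4 highly expressed genes and 4 genes at a low level. Anxa6, which carries the annexin core in duplicate, was at 42.5 FPKM (41.0 to 44.0), Anxa5 at 40.8 (38.9 to 42.8) and Anxa7, known for aggregating secretory granules, at 40.4 (39.0 to 41.9). The intervals of neighbours in this order overlapped. Anxa11, a partner of calcyclin (S100a6), followed at 25.6 FPKM (24.6 to 26.6). Anxa3 at 7.84 (6.99 to 8.76) and Anxa4, a gene of epithelial cells, at 7.49 (7.003 to 8.011) overlapped each other. The place of Anxa4 depends on the bases counted. Over coding bases alone it was at 22.5 FPKM, beside 9.64 for Anxa3, 10.9 for Anxa2 and 44.2 for Anxa11. Anxa2, which forms a complex with S100a10 beneath the plasma membrane, was at 4.31 FPKM (3.90 to 4.76). Anxa1, a ligand of formyl peptide receptors that dampens inflammation, was lowest at 1.98 (1.65 to 2.35), from 128 alignments. The family spanned 21.5-fold from Anxa1 to Anxa6.

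The genes lay on 7 chromosomes. On mm9 the spans are chr19:20447918-20465434 for Anxa1, chr9:69301427-69339602 for Anxa2, chr5:97222404-97274987 for Anxa3, chr6:86686834-86743578 for Anxa4, chr3:36347847-36374765 for Anxa5 and chr11:54792610-54846947 for Anxa6. Anxa7 at chr14:21274483-21299355 and Anxa11 at chr14:26661669-26706290 share a chromosome. Anxa2, Anxa3 and Anxa11 are on the plus strand and the others on the minus strand. Anxa5 is thus the sole annexin of the 8 on the chromosome of Sox2.

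The promoters of 2 genes that were low in wild type, Anxa1 and Anxa2, and of 2 that were well expressed, Anxa5 and Anxa11, are shown as examples that differ in composition. Each line is the 250 bases before the start of a RefSeq transcript (RefSeq promoter table of build GRCm38.p6), 5′ to 3′, in lower case, with each CG dinucleotide and the motif TATAAA in capitals. On mm9 each has 1 exact match on its chromosome, at chr19:20465162-20465411 on the minus strand for Anxa1, chr9:69301240-69301489 on the plus strand for Anxa2, chr3:36374810-36375059 on the minus strand for Anxa5 and chr14:26661391-26661640 on the plus strand for Anxa11.
Anxa1: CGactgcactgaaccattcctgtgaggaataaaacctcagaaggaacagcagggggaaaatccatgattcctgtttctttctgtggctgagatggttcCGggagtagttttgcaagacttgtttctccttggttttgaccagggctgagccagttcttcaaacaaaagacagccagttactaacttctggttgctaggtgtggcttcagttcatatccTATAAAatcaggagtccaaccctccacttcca
Anxa2: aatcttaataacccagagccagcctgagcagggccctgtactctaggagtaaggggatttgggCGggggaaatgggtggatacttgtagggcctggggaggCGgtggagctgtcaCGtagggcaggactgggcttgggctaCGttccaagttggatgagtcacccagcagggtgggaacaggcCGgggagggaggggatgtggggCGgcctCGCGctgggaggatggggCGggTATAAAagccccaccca
Anxa5: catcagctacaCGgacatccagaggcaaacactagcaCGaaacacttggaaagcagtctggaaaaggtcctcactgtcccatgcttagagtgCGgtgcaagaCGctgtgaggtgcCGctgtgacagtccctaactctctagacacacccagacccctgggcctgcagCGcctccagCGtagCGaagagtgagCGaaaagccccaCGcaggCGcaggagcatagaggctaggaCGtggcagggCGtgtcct
Anxa11: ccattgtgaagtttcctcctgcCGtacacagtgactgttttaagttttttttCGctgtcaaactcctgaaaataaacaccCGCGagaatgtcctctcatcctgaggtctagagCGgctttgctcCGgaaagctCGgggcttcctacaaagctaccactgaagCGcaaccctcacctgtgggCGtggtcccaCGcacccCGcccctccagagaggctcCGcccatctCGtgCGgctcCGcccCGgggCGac

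The Anxa1 promoter held 2 CG dinucleotides and a TATAAA that begins 32 bases before the start. Anxa2 held 9 CG and a TATAAA that begins 17 bases before the start. Anxa5 held 13 CG, Anxa11 held 17, and neither held TATAAA on either strand. Over the 32851 promoters of the table the median was 6 CG, and 12.4% held TATAAA. As many CG as in Anxa5 or more were held by 31.5% of promoters, as many as in Anxa11 by 23.5% and as many as in Anxa2 by 40.3%, and 29.0% held as few as Anxa1 or fewer. The table had entries for 6 of the 8 genes, 8 entries in all, and those of Anxa1 and Anxa2 were the 2 with TATAAA. No separation of low from well expressed members by composition can be read from these entries. Anxa7, well expressed, had 2 CG at its annotated start and 16 in its other entry. Anxa4 had 13 CG at its annotated start and 2 in its other entry. It was low in wild type over all exonic bases but at 22.5 FPKM over coding bases. On either strand, CCAAT was in 33.8% of all promoters and AACAAAG, a letter string of Sox factor sites, in 5.03%, and each was in 0 of the 8 annexin entries. A match of letters is a description of the window and not a binding site. The RefSeq starts lay 273 bases inside the annotated gene span for Anxa1 and 63 for Anxa2, and 44 and 28 bases outside it for Anxa5 and Anxa11.

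In unedited F123, H3K4me3 was lower at the starts of Anxa1, Anxa2 and Anxa3 than at those of the other members, Anxa4 included. Alignments were counted within 2 kb on each side of the annotated start and divided by the autosome mean of the same library, which corresponds to 11.2 alignments for H3K4me3, 2.50 for H3K27ac in F123 and 12.3 for H3K27ac in J1. H3K4me3 at the Anxa1 start was at 1.07-fold the mean (0.553 to 1.87), from 12 alignments, and Anxa1 was the 1 member whose interval included the mean. Anxa2 and Anxa3 were both at 2.32-fold (1.51 to 3.40), from 26 alignments each. The other 5 members were between 4.81-fold for Anxa5 (3.62 to 6.28) and 6.598-fold for Anxa11 (5.18 to 8.28), with intervals that did not overlap those of Anxa1, Anxa2 and Anxa3. The interval was above the mean at 7 of 8 annexin starts, where 63.9% of 22380 coding gene starts did the same, and the annexin median of 4.90-fold stood beside 3.92-fold for all coding starts.

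H3K27ac followed a different order. In F123 the Anxa6 start was at 26.4-fold (20.4 to 33.6), which was above 95.3% of coding starts, and Anxa11 was at 12.8-fold and Anxa7 at 6.41-fold. Anxa5 was at 2.80-fold (1.13 to 5.77) from 7 alignments, although its RNA level did not differ from those of Anxa6 and Anxa7 beyond the counting intervals. Anxa2, Anxa3, Anxa4 and Anxa1 lay between 0.801-fold and 2.40-fold, with intervals that included the mean. In all, 4 of 8 annexin starts had an interval above the mean, beside 38.2% of coding starts. In J1 the starts of Anxa11 at 16.0-fold, Anxa6 at 10.99-fold and Anxa7 at 10.01-fold led again, and Anxa5 was at 2.03-fold (1.317 to 3.005). Anxa1 at 0.896-fold was the 1 member whose J1 interval included the mean, and 7 of 8 were above it, beside 51.7% of coding starts. Anxa2 was at 5.54-fold (4.30 to 7.02) in J1. The F123 and J1 libraries differ in depth, with 1576875 and 7743500 distinct alignments, and in copied reads, with 5.10 and 10.5 reads behind each, so their folds are set side by side and not compared.

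**Figure D1:**
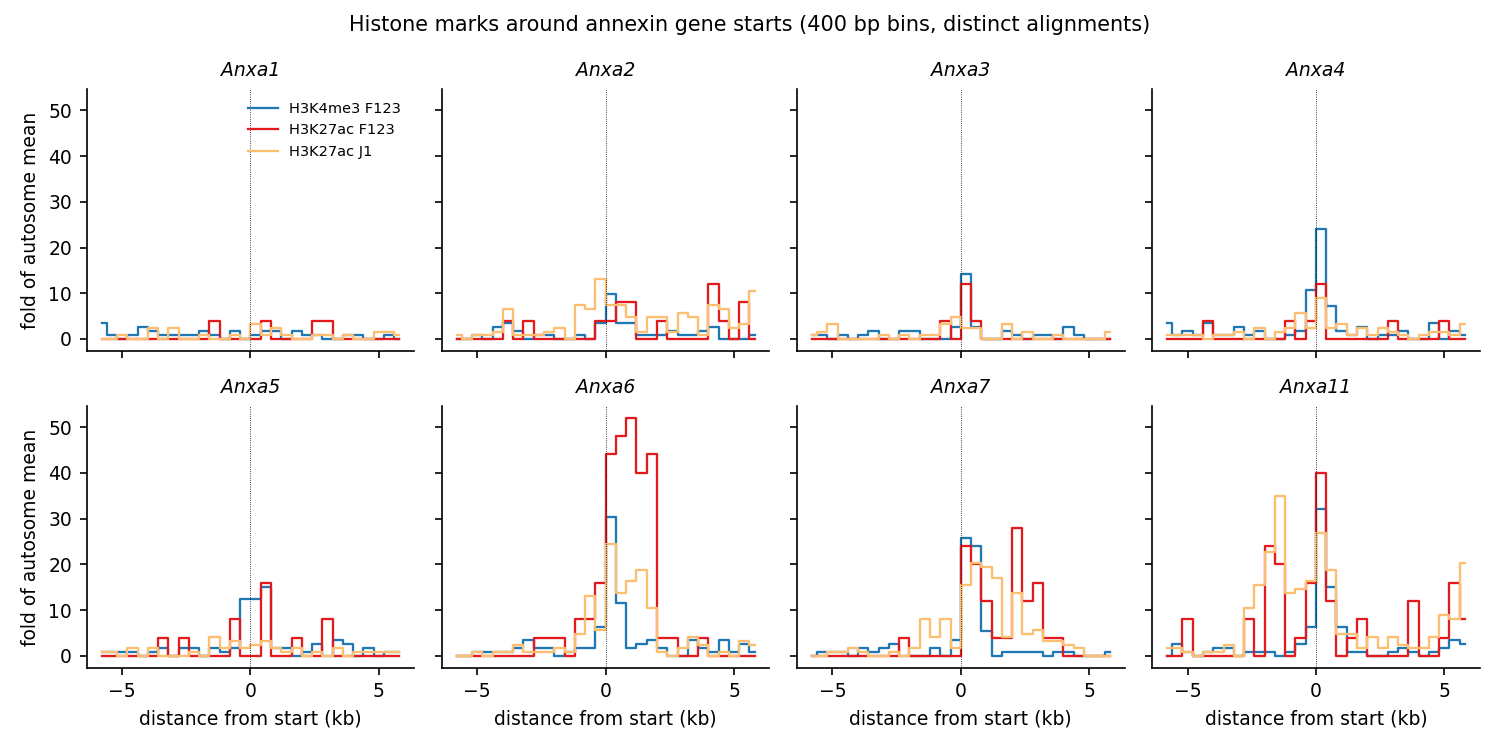
Histone marks around the annotated starts of the 8 annexin genes, as distinct alignments in 200 bp bins, averaged in pairs to 400 bp, over the autosome mean of each library (y axis, fold) against the distance from the start in the direction of transcription (x axis, kb), with 1 line per library. Anxa6, Anxa7 and Anxa11 carry the highest bins, Anxa4 and Anxa5 a narrow H3K4me3 peak at the start, and Anxa1 no H3K4me3 peak at the start. For F123 H3K27ac 1 alignment in a 200 bp bin is 8.01-fold, so single bins of that line are not read.

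In the clones Anxa1, Anxa2 and Anxa3 were furthest above wild type. Over all exonic bases Anxa1 and Anxa2 were the lowest members in wild type. Anxa3 and Anxa4 came next with overlapping intervals, and Anxa4 stayed under 3-fold. Over coding bases alone, wild type Anxa2 at 10.9 FPKM was above Anxa3 at 9.64, and Anxa4 was at 22.5. Anxa1 was at 1.98 FPKM in wild type, then 24.4 (CAST+/129-), 23.7 (CAST-/129+) and 69.6 (CAST-/129-). This was 12.4-fold (10.2 to 15.0), 12.0-fold (9.80 to 14.8) and 35.2-fold (29.3 to 42.6) the wild type level. The monoallelic clones overlapped each other, and CAST-/129- was 2.85-fold CAST+/129- (2.60 to 3.13) and 2.93-fold CAST-/129+ (2.60 to 3.31).

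Anxa2 was at 4.31 FPKM in wild type, then 39.2 (CAST+/129-), 54.5 (CAST-/129+) and 77.4 (CAST-/129-). These were 9.08-fold (8.14 to 10.1), 12.6-fold (11.3 to 14.2) and 17.9-fold (16.1 to 20.1) the wild type level. No intervals overlapped among the 4 libraries, and CAST-/129+ was 1.39-fold CAST+/129- (1.293 to 1.496). The size of these ratios depends on how copied reads are treated. With all reads counted, before identical alignments are collapsed, CAST-/129- was at 6617% of wild type for Anxa1 and 3634% for Anxa2, and with each start position counted once at 1879% and 1095%.

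Anxa3, first described in neutrophils, was at 7.84 FPKM in wild type, then 28.7 (CAST+/129-), 33.0 (CAST-/129+) and 56.1 (CAST-/129-). It was 3.65-fold (3.18 to 4.21), 4.21-fold (3.59 to 4.93) and 7.15-fold (6.20 to 8.26) wild type. On the scale of log2(FPKM + 4), which is the scale of the 3-fold rule in the study's methods and understates changes of low genes, Anxa3 was just short of the rule in CAST+/129- at 1.46 and just past it in CAST-/129+ at 1.64.

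By that rule, 2 of the 8 annexins, Anxa1 and Anxa2, were higher in CAST+/129-, where 0.321% of all 31498 genes were. In CAST-/129+ 3 annexins were higher (Anxa1, Anxa2 and Anxa3), beside 0.473% of all genes, and the same 3 were higher in CAST-/129-, beside 0.819%. With a pseudo-value of 10 or a 5-fold threshold Anxa1 was no longer past the rule in either monoallelic clone, nor Anxa3 in CAST-/129+. With a 2-fold threshold Anxa3 passed in CAST+/129- and Anxa5 in CAST-/129-. Among 13825 genes with a mean of at least 1 FPKM, which include all 8 annexins, the shares were 0.731%, 1.08% and 1.87%. No annexin was 3-fold lower in any clone, beside 0.305%, 0.33% and 0.511% of all genes. All 3 clones share the wild type library, so the counts are not independent of each other, and the family was chosen with these values known.

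Anxa5, the sole one of the 8 on the Sox2 chromosome, was nearer to wild type than Anxa1, Anxa2 and Anxa3 in each clone. The same held for Anxa4, Anxa6, Anxa7 and Anxa11, which lie on other chromosomes. Anxa5 was at 40.8 FPKM in wild type (1703 alignments), then 41.5 (CAST+/129-), 76.5 (CAST-/129+) and 109 (CAST-/129-) (1068 alignments). CAST+/129- was at 102% of wild type (93.6 to 110), CAST-/129+ at 187% (172 to 204) and CAST-/129- at 267% (247 to 289). Over 7 alternatives the value of CAST+/129- ran from 82.0% with reads before collapsing to 110% over coding bases, so that no direction is given for it. On the log2(FPKM + 4) scale the differences were 0.02, 0.84 and 1.34, none past 3-fold. Wild type and CAST+/129- overlapped, while the other 2 clones stood above both and apart from each other.

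The ratio of the 2 monoallelic clones to each other was higher at Anxa5 than at the other 7 members, with an interval that overlapped that of Anxa4. CAST-/129+ was at 184% of CAST+/129- for Anxa5 (167 to 203), beside 153% for Anxa4 (136 to 174) and 139% for Anxa2 (129.3 to 149.6). Anxa3 was at 115% (up to 132, with a lower end at 100%) and Anxa6 at 115% (106 to 125), and for Anxa1, Anxa7 and Anxa11 the intervals included 100%. Thus 5 of 8 annexins had an interval above 100% in this comparison, where 18.6% of 22446 genes did. The 22446 are the genes with an alignment in either clone and include genes with few alignments. Alleles were not told apart here, so the values are sums over the CAST and 129 copies.

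Anxa4 was at 7.49 FPKM in wild type, then 10.5 (CAST+/129-), 16.2 (CAST-/129+) and 14.6 (CAST-/129-). Its ratios were 141% (127 to 156), 216% (192 to 242) and 195% (172 to 219). Over all exonic bases it was the 1 member whose highest value was not in CAST-/129-, although the 2 highest clones overlapped (90.2%, 78.6 to 103). Over coding bases alone its value in CAST-/129- was the higher, at 46.5 FPKM beside 46.1 in CAST-/129+. Anxa6 was at 42.5 FPKM in wild type, then 45.7 (CAST+/129-), 52.7 (CAST-/129+) and 80.5 (CAST-/129-). CAST-/129- was at 189% of wild type (178 to 202) and CAST-/129+ at 124% (115 to 133). CAST+/129- was at 108% (101 to 114), but was below wild type, at 88.0% with reads before collapsing and 95.9% with reads thinned to the lowest total of reads, so that no direction is given for it.

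Anxa7 and Anxa11 varied least. Anxa7 was at 40.4 FPKM in wild type, then 47.7 (CAST+/129-), 50.4 (CAST-/129+) and 54.0 (CAST-/129-), that is 118%, 125% and 134% of wild type (111 to 125, 116 to 134 and 124 to 144). Anxa11, which has been linked to cytokinesis and to the transport of RNA granules, was at 25.6 FPKM in wild type, then 31.6 (CAST+/129-), 29.3 (CAST-/129+) and 32.6 (CAST-/129-). Its ratios were 124% (116 to 132), 115% (105 to 125) and 128% (118 to 138). The value of CAST-/129+ was 99.8% with reads before collapsing. The 3 clones lay close together for both genes, with a largest ratio between clones of 1.13-fold for Anxa7 (1.05 to 1.22) in CAST-/129- over CAST+/129-.

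**Figure D2:**
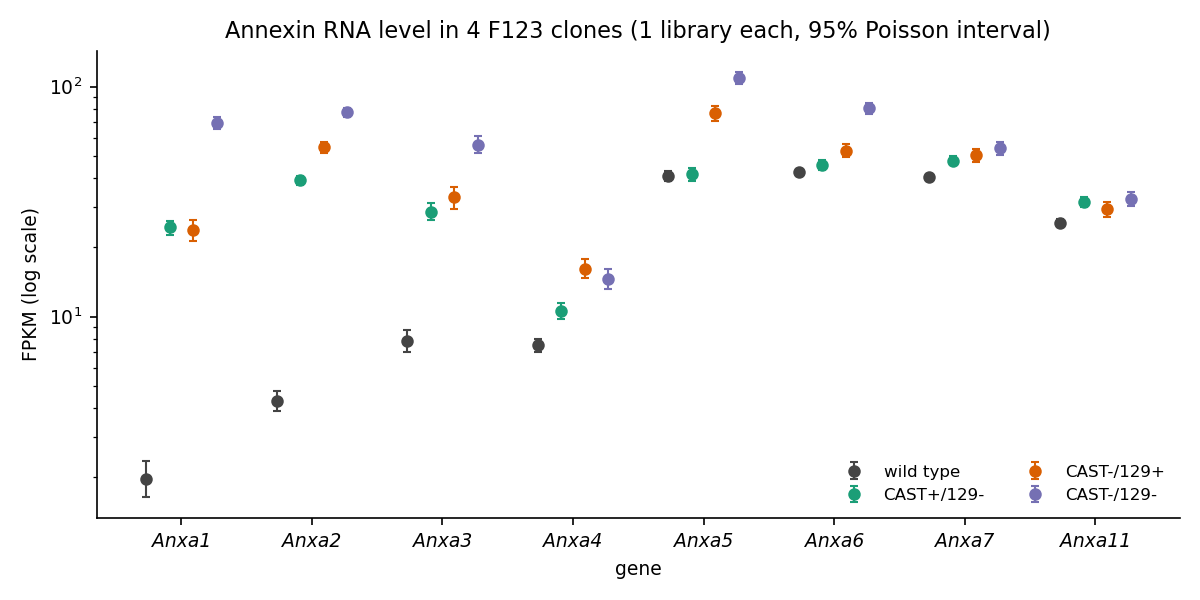
RNA level of the 8 annexin genes in the 4 RNA-seq libraries (y axis, FPKM on a log scale), with exact 95% Poisson intervals and 1 library per genotype. Anxa1, Anxa2 and Anxa3 are low in wild type and far higher in each clone, Anxa5 has overlapping intervals in wild type and CAST+/129- and is higher in the other clones, and Anxa7 and Anxa11 differ little.

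An interval above 100% of wild type was found for 7 of the 8 annexins in CAST+/129-, all but Anxa5, where 26.4% of 22668 genes had one. The 7 include Anxa6, whose interval over coding bases was 97.6 to 111.5 and whose direction depended on copied reads. In CAST-/129+ all 8 had one, Anxa11 with the value of 99.8% before collapsing given above, beside 24.7% of 22641 genes, and in CAST-/129- all 8, beside 26.3% of 22015 genes. The annexin median on the log2(FPKM + 4) scale was 0.30, 0.83 and 1.1 in the 3 clones, beside -0.03, -0.07 and -0.08 for genes with a mean of at least 1 FPKM. Against CAST+/129-, CAST-/129- was higher at 7 of 8 annexins, all but Anxa11, beside 23.8% of genes. Against CAST-/129+ it was higher at 6 (Anxa1, Anxa2, Anxa3, Anxa5, Anxa6 and Anxa11), beside 17.7%. These shares of genes are over those with an alignment in either library, which include genes with too few for an interval to clear 100%. A share among genes with counts like those of the annexins was not computed.

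The make-up of annexin RNA differed between the libraries. The summed level of the 8 genes was 171 FPKM in wild type, then 269 (CAST+/129-), 336 (CAST-/129+) and 494 (CAST-/129-). Anxa1, Anxa2 and Anxa3 gave 8.27% of it in wild type, then 34.2% (CAST+/129-), 33.1% (CAST-/129+) and 41.1% (CAST-/129-). The sum of the other 5 was 157, 177, 225 and 291 FPKM in the same order. In CAST-/129- the order by level was Anxa5, Anxa6, Anxa2, Anxa1, Anxa3, Anxa7, Anxa11 and Anxa4, where Anxa6 and Anxa2, Anxa2 and Anxa1, and Anxa3 and Anxa7 overlapped as neighbours. This order depends on the bases counted. Over coding bases alone Anxa2 was highest in CAST-/129- at 194 FPKM, then Anxa1 at 140, Anxa5 at 136.5 and Anxa6 at 96.0. Over all exonic bases Anxa4 was the lowest member in every clone, and the span from lowest to highest was 4.53-fold, 4.73-fold and 7.48-fold in the 3 clones. Over coding bases alone Anxa3 at 40.0 FPKM and Anxa1 at 43.35 were below Anxa4 at 46.1 in CAST-/129+.

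**Figure D3:**
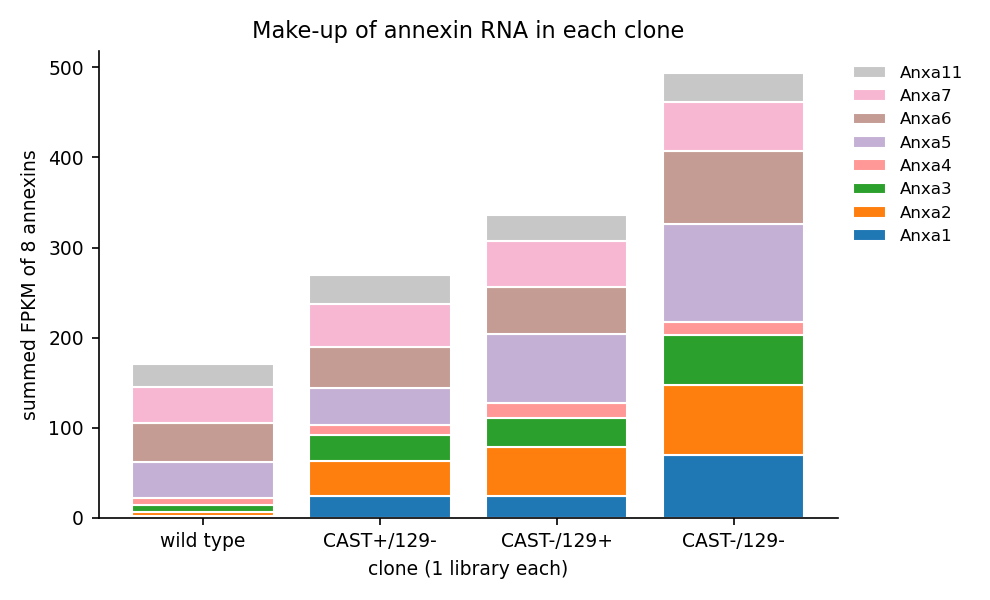
Summed FPKM of the 8 annexin genes in each RNA-seq library (y axis, linear from 0), stacked by gene, with 1 library per genotype and no error bars. The blocks of Anxa1, Anxa2 and Anxa3 at the base grow from 14.1 FPKM in wild type to 203 FPKM in CAST-/129-.

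Anxa5 was compared with its surroundings on chromosome 3. The highest 13 kb window of F123 H3K27ac between Sox2 and Atp11b, at chr3:34653583-34666582 on mm9 with 534 alignments, was taken as the position of the SE and begins 102 kb after the end of Sox2. The Anxa5 start lies 1.71 Mb beyond it. Of 34 genes that start within 2 Mb of the window, 16 had at least 100 alignments in wild type, and 13 remain without Anxa5, Sox2 and the overlapping transcript Sox2ot. Their ratio to wild type in CAST-/129- ran from 42.5% for Mccc1 to 122% for Bbs7 (up to 149, with a lower end at 100%), with a median of 79.9%. The Anxa5 value of 267% in this clone lay above all 13, which is how it was chosen. In CAST-/129+ the 13 ran from 42.7% to 134% with a median of 101%, below the 187% of Anxa5, and in CAST+/129- from 48.5% to 134% with a median of 88.4%, a range that holds the 102% of Anxa5.

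The expressed genes that start nearest to Anxa5 belong to the set from which it was chosen as the highest in CAST-/129-, so their lower values in that clone follow from the choice. On the side of the SE, the starts of D3Ertd254e and Acad9 lie 316.3 kb and 409.9 kb away. They were at 79.9% (65.1 to 97.4) and 68.7% (60.9 to 77.3) of wild type in CAST-/129-, and at 120.0% (101 to 142) and 85.4% (76.7 to 95) in CAST-/129+. On the far side, Exosc9, a subunit of the RNA exosome, and Ccna2, which encodes cyclin A, start 76.8 kb and 96.3 kb away. In CAST-/129- they were at 105% (92.8 to 118) and 89.5% (84.2 to 94.99), and in CAST-/129+ Exosc9 was at 131% (117 to 145) and Ccna2 at 106% (up to 112, with a lower end at 100%). In CAST+/129- the 4 genes were between 81.9% for Acad9 and 116% for Exosc9. The direction of D3Ertd254e in CAST-/129- and of Ccna2 in CAST-/129- and CAST-/129+ was not the same under every treatment of copied reads. Within the family, Anxa5 stood above Anxa4, Anxa6, Anxa7 and Anxa11 in CAST-/129- with no overlap of intervals and below Anxa1, Anxa2 and Anxa3. The other members do not lie on chromosome 3. The CAST-/129- value of Anxa5 is the one it was chosen by, so its place among the members in that clone is a description. In CAST+/129- the Anxa5 ratio of 102% (93.6 to 110) overlapped that of Anxa6 at 108% (101 to 114), and over coding bases Anxa6 was the lower, at 104% beside 110% for Anxa5.

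**Figure D4:**
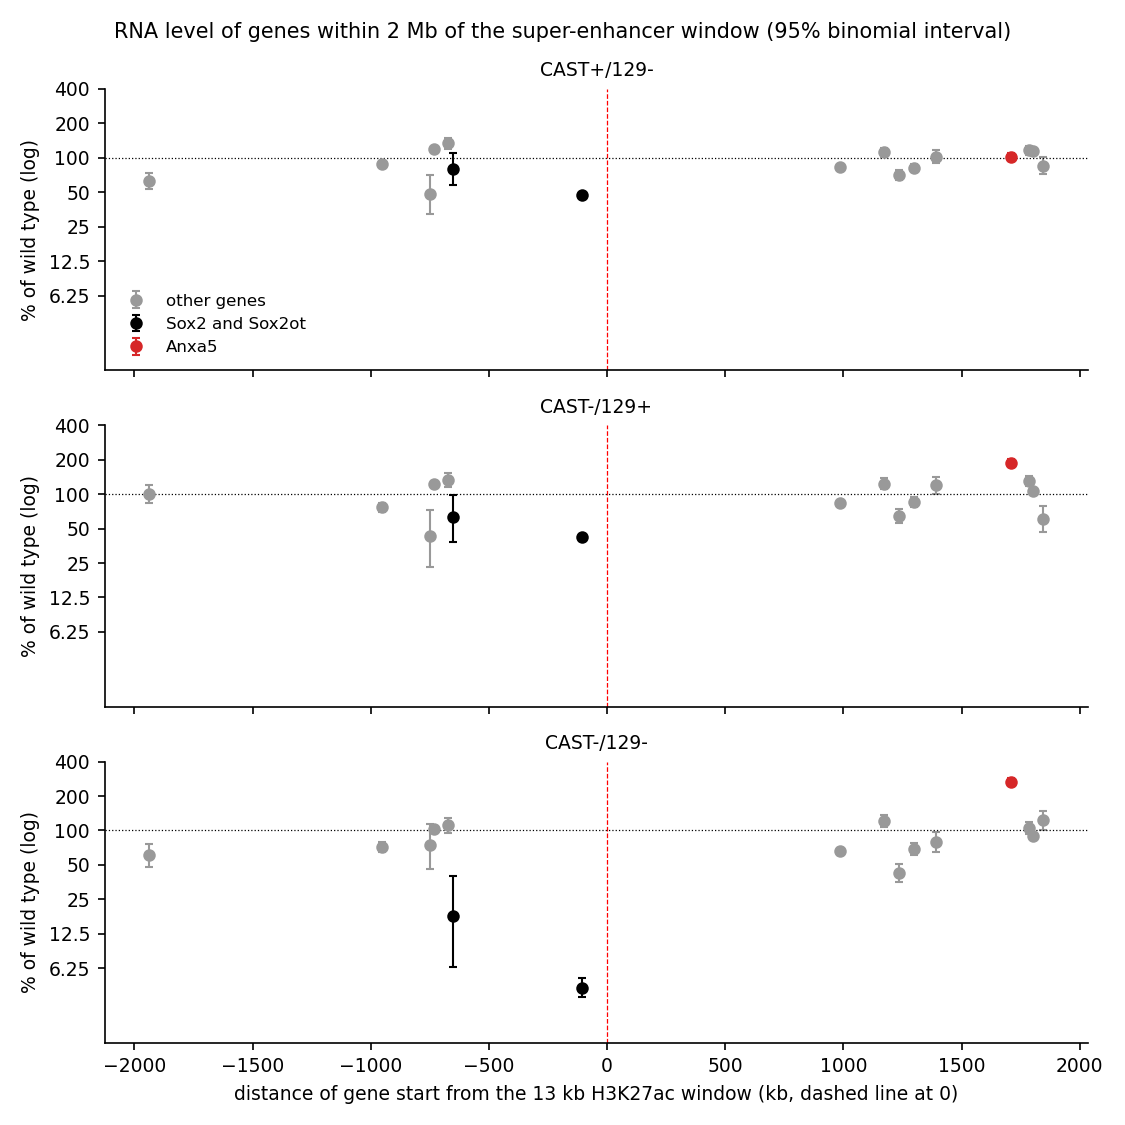
RNA level as a percentage of wild type (y axis, log scale, exact 95% binomial intervals of counting error) for the 16 genes that start within 2 Mb of the H3K27ac window and had at least 100 wild type alignments, against the distance of the gene start from the window (x axis, kb), with 1 panel per clone. Anxa5, in red, lies on the 100% line in CAST+/129- and above the other genes in CAST-/129+ and CAST-/129-, and Sox2 and Sox2ot, in black, lie lowest in CAST-/129-.

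The ratios of Anxa5 along the transcript are given as a description. Its CAST-/129- value is the one it was chosen by, and the intervals are parts of 1 gene in 1 library and not repeats. The gene has 13 exonic intervals, each with at least 10 wild type alignments. In CAST-/129- the ratio ran from 230% to 380% over them and in CAST-/129+ from 122% to 246%, with all 13 above 100% in both. In CAST+/129- it ran from 83.9% to 156%, with a median of 102% and 8 of 13 above 100%. For Anxa2, 13 of 15 intervals had enough alignments, and their ratio in CAST-/129- ran from 938% to 3462%. The other 2 intervals of Anxa2, 301 bases in all, were empty in every library, as were 2 of Anxa4, 786 bases in all, and 1 of Anxa7, 66 bases. Over its 1017 coding bases Anxa4 was at 22.5 FPKM in wild type, then 33.7 (CAST+/129-), 46.1 (CAST-/129+) and 46.5 (CAST-/129-). Over its 1173 coding bases alone, which held 319 of the 400 wild type alignments, Anxa2 was at 10.9, 93.2, 136 and 194 FPKM from wild type to CAST-/129- in the order used above. Over coding bases Anxa5 in CAST-/129- was at 289% of wild type (263 to 317) and Anxa1 at 4074%. All 12 usable intervals of Anxa3 and all 5 of Anxa1 were above 100% in each clone. Members nearer to wild type had some intervals below 100%. In CAST-/129+ such intervals were as low as 25.6% for Anxa6, 61.0% for Anxa7 and 60.7% for Anxa11, with 19 of 26, 11 of 13 and 11 of 13 above 100%. The 25.6% is from an interval with 16 wild type alignments, too few for its ratio to be read alone. In CAST-/129- Anxa7 ran from 81.0% to 213% and Anxa11 from 64.2% to 307%, and the last interval of Anxa11 held 10.1% of its alignments, beside 20.1% in wild type.

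**Figure D5:**
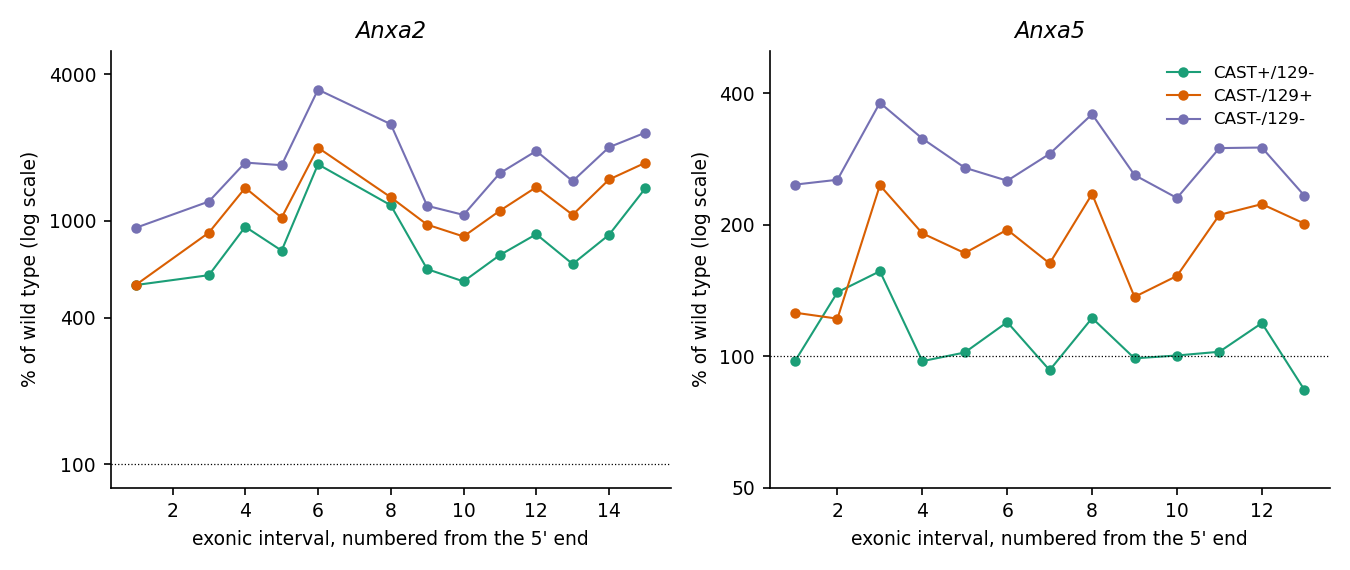
Ratio to wild type in percent (y axis, log scale) of each exonic interval of Anxa2 and Anxa5 with at least 10 wild type alignments, numbered from the 5′ end (x axis), with 1 line per clone and no error bars. The lines of Anxa5 in CAST-/129- lie above those in CAST-/129+ at all 13 intervals, and those of CAST+/129- scatter about 100%.

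The genes nearest in pattern to a member were ranked over the 4 RNA-seq libraries by the Euclidean distance of centred log2(FPKM + 4), among 7014 genes with a mean of at least 10 FPKM. For Anxa5 they were Sepn1, which encodes selenoprotein N, at a distance of 0.150, Perp, a gene of cell adhesion, at 0.203, and Arhgef25 at 0.228, and they lie on chromosomes 4 and 10. For Anxa2 the nearest were Nrk at 0.138, S100a6 at 0.474 and Cnn2 at 0.492. Nrk was at 0.350 FPKM in wild type and 35.2 in CAST-/129-, or 10070% of wild type beside 1794% for Anxa2, and the 2 are near each other only on the scale with 4 added. For Anxa6 they were Btg2 at 0.119, Ccng1 at 0.136 and Uchl1 at 0.150. Within the family the nearest member was Anxa6 for Anxa5, at 0.560, and Anxa1 for Anxa2, at 0.667. With 4 libraries that differ in depth, these distances are a description.

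The 3 S100 partners listed were also higher in the clones. S100a10, which binds Anxa2, was at 50.3 FPKM in wild type, then 110 (CAST+/129-), 162 (CAST-/129+) and 128 (CAST-/129-), the last 2.54-fold wild type (2.34 to 2.76). S100a11, which binds Anxa1, was at 56.6, 97.2, 125 and 200 FPKM. S100a6, which binds Anxa11, was at 12.99, 97.9, 112 and 240 FPKM, and its ratio of 18.5-fold in CAST-/129- (16.0 to 21.4) was close to that of Anxa2. Of 16 partner genes, 1 was past the 3-fold rule in CAST+/129- (S100a6), 2 in CAST-/129+ (S100a6 and S100a10) and 5 in CAST-/129- (S100a6, S100a11, Dysf, Capn2 and Plat), beside the shares of 0.321%, 0.473% and 0.819% of all genes. None was 3-fold lower. Myof, a relative of dysferlin, was lower in the monoallelic clones, at 17.4 FPKM in wild type, 11.7 in CAST+/129- (67.2%, 62.6 to 72.1) and 12.2 in CAST-/129+ (69.9%, 63.6 to 76.7), and was at 24.8 in CAST-/129-.

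Dysf, which encodes the membrane repair protein dysferlin, was at 1.84 FPKM in wild type, then 9.35 (CAST+/129-), 10.9 (CAST-/129+) and 16.6 (CAST-/129-). Plat, the tissue plasminogen activator that Anxa2 binds at the cell surface, was at 1.64, 5.07, 4.83 and 13.1 FPKM. Fpr1 and Fpr2, receptors of Anxa1, had 0 alignments in wild type and both monoallelic clones. In CAST-/129- they had 4 and 6 alignments, at 0.518 and 0.825 FPKM. Pdcd6, which binds Anxa7 and Anxa11, was at 33.0, 54.8, 49.5 and 51.0 FPKM.

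Summed markers of fibroblasts, trophoblast and macrophages were higher in each clone than in wild type, as the annexin sum was, and those of extraembryonic endoderm were not. The summed level of 14 fibroblast markers was 27.1 FPKM in wild type, then 94.0 (CAST+/129-), 100.1 (CAST-/129+) and 507 (CAST-/129-). By the 3-fold rule 2, 2 and 9 of the 14 were higher, and Lum and Fap were at 0 in wild type. Thy1 held 11.4 FPKM of the wild type sum and was lower in the monoallelic clones, at 5.69 and 6.28. Pdgfrb was at 91.6% of wild type in CAST+/129- (74.8 to 112). Col1a1, at 3.48 FPKM in wild type, was at 39.0 and 38.9 in the monoallelic clones and was the largest part of their sums. Of 10 trophoblast markers, 9 were in the annotation. They summed to 22.6, 355, 593 and 569 FPKM, with 4, 5 and 5 past the rule and Krt8 and Krt18 holding most of the sum. Elf5, Gata3, Hand1 and Eomes were lower in CAST-/129- than in both monoallelic clones, with Elf5 at 0.117 FPKM beside 2.12 and 4.27. Cdx2, Krt8, Krt18 and Ascl2 were not, and Krt7 lay between the monoallelic clones. The 5 macrophage markers summed to 11.8, 19.5, 25.9 and 118 FPKM, with Ptprc and Lyz2 at 0 in wild type, and 1, 1 and 2 past the rule. Cd68 held 11.7 FPKM of the wild type sum and was lower in the clones, at 5.62, 7.62 and 9.14, while Lyz2 was at 11.7, 14.1 and 95.5. The 9 markers of extraembryonic endoderm summed to 399, 199, 268 and 409 FPKM, and 2 of them were 3-fold lower in each clone. These were Gata6 and Gata4 in CAST+/129-, and Gata6 and Lama1 in CAST-/129+ and in CAST-/129-. None was 3-fold higher by the rule, but Foxa2 went the other way in CAST-/129+ and CAST-/129-, at 9.05 and 11.4 FPKM beside 1.36 in wild type. Sparc at 189 FPKM and Col4a1 at 172 held most of the sum in CAST-/129-, where the median of the list on the log2(FPKM + 4) scale was -0.83. The 8 ESC markers summed to 1528, 1483, 1401 and 1080 FPKM, with 3 of them (Nanog, Zfp42 and Esrrb) 3-fold lower in CAST-/129-. In these bulk libraries a change in the share of cells of a type and a change in RNA per cell cannot be told apart, and the part of these cell types in the annexin levels was not tested.

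Of the remaining annexins of the annotation, Anxa8 lay within the range of the low members in wild type, and the others were lower. Anxa8 was at 5.91 FPKM in wild type, then 6.57 (CAST+/129-), 6.32 (CAST-/129+) and 17.6 (CAST-/129-), the last at 298% of wild type (247 to 359) from 193 alignments. Anxa9, which is also on chromosome 3, at chr3:95100018-95111098, was at 0.233, 3.06, 1.91 and 0.827 FPKM, and was thus highest in a monoallelic clone. Anxa10 was at or below 0.555 FPKM in each library. Anxa13 had 1 alignment in wild type and 0 in the 3 clones, which allows up to 0.253, 0.521 and 0.541 FPKM. None of the 4 was past the 3-fold rule in any clone. That rule understates changes near 0, such as that of Anxa9, at 13.1-fold wild type in CAST+/129- (7.11 to 26.5) from 79 alignments beside 12.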

How the data were processed

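RNA-seq of wild type, CAST+/129-, CAST-/129+ and CAST-/129- F123 cells and ChIP-seq of H3K4me3 (F123) and H3K27ac (F123, J1) were analysed, 7 libraries with 1 for each condition. The authors mapped all reads to mm9, RNA-seq with Novoalign and USeq, and Bowtie is also named in the submitters' processing notes. They deposited aligned positions in which identical alignments are 1 line with a whole-number count of the reads behind it. Lines of the RNA-seq files are on the strand opposite the RNA. Sequences and qualities were not analysed here, and introns of the 8 genes at least 100 bases from any exon held 0 alignments in every library. The members and gene lists were chosen with earlier results of these data known.

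Distinct alignments were counted on the sense strand by midpoint in exonic bases owned by 1 gene (GENCODE M1 on NCBIM37, which is mm9, at least 200 bases), and FPKM took the alignments on such genes as library size. The 3-fold rule on log2(FPKM + 4) follows the study's methods. Intervals are exact 95% Poisson or binomial intervals of counting error, and for 0 alignments the limit of 3 alignments is printed. There is no test, since each group is 1 library. ChIP-seq 5′ ends were counted within 2 kb of annotated starts over the autosome mean, with no input. Named genes are the 8 members, 4 other annexins, 16 listed partners, genes within 2 Mb of the SE with at least 100 wild type alignments, the 2 nearest expressed genes on each side of Anxa5, the 3 nearest patterns of Anxa5, Anxa2 and Anxa6, and marker lists. The 3-fold rule and the ratio intervals were tested on simulated counts. Alternatives changed the library size, copied reads, depth, strand, exonic bases, pseudo-value, threshold, filter and promoter window, and those for genes outside the family were added after the data were seen. Scripts used pandas 2.3.3, pyarrow 21.0.0, numpy 2.4.6, matplotlib 3.10.9 and scipy 1.17.1 under Python 3.11.15.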

Additional observations from a re-analysis of the deposited data

How the results depend on the processing

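No paired analysis was possible because each genotype was 1 library. The number of annexins past the threshold was 1 (Anxa2) in CAST+/129- and in CAST-/129+ with a pseudo-value of 10 or a 5-fold threshold, and 3 in CAST-/129- under both. With a 2-fold threshold it was 3, 3 and 4 in the 3 clones, and with a pseudo-value of 1 it was 3 in each. The share of all genes at these other settings is not given, so these counts have no background beside them and show only how the calls move. The median ratio of the 8 genes to wild type was 132%, 202% and 231% in CAST+/129-, CAST-/129+ and CAST-/129-. It was 169% in CAST-/129+ and 189% in CAST-/129- with each start position counted once, and 256% in CAST-/129- with reads before collapsing, a setting that moves the median of genes with a mean of at least 1 FPKM by 0.11 on the log2 scale. With a window of 1 kb the median promoter enrichment was 8.91-fold for H3K4me3 and 6.35-fold for J1 H3K27ac, in place of 4.90-fold and 4.27-fold, which a narrower window around a peak gives by construction.

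With reads before collapsing, Anxa6 in CAST+/129- was at 88.0% of wild type, and in CAST-/129+ Anxa11 was at 99.8%, Fxr1 at 86.6% and Ccna2 at 96.7%, and D3Ertd254e in CAST-/129- at 104%. With reads thinned to the lowest total, Anxa6 in CAST+/129- was at 95.9%, and in CAST-/129+ Fxr1 was at 96.7% and Ccna2 at 99.9%. With each start counted once, Capn1 in CAST-/129+ was at 97.7%, and in CAST-/129- Ccna2 was at 115.5% and Rasa1 at 97.1%. Each of these was on the other side of 100% by distinct alignments, and the cause was not tested. Over 7 alternatives Anxa5 ran from 82.0% to 110% in CAST+/129-, from 156% to 196% in CAST-/129+ and from 212% to 289% in CAST-/129-. By start positions Anxa1 was at 822% in CAST+/129- and 758% in CAST-/129+ and Anxa2 at 838% in CAST-/129+, and by reads Anxa2 was at 1509% and 2133%. Depth limits F123 H3K27ac most, at 2.50 alignments per promoter at the mean.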
